A study of Mus musculus with 4 samples.

Results

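The transcripts described here encode the proteins of the cytosolic ribosome, read in single nuclei of the mouse heart. The members were all features whose symbol is Rpl or Rps followed by a digit, together with Rplp0, Rplp1, Rplp2 and Rpsa, without pseudogene symbols and without the Rps6k kinases. Of 86 matching symbols among 32287 features, 84 had at least 100 UMIs (unique molecular identifiers, each standing for 1 captured transcript) over the 4 libraries. Rpl39l with 9 UMIs and Rpl10l with 0 UMIs fell below that minimum, and Rps27rt with 136 UMIs was the member nearest above it. The rule used symbols and total UMIs, not differences between genotypes, but it was set with earlier results of these data known. Of the 84 members, 77 are called core ribosomal proteins below, 46 of the large and 31 of the small subunit. The other 7 are the paralogs Rpl3l, Rpl7l1, Rpl22l1, Rpl36al, Rps27l and Rps27rt, and Rps19bp1, which encodes a binding partner of Rps19 rather than a subunit.

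The study profiled hearts of C57BL/6 mice at 6 months of age with the 10x Genomics 3′ method, in 4 libraries of nuclei. These came from mice labelled RBM20 homo with correction (homozygous for an RBM20 mutation and treated by gene editing, here "corrected"), RBM20 homo (homozygous), RBM20 het (heterozygous) and WT. Each library pooled 3 hearts, so each genotype has 1 library and no spread between animals can be measured. RBM20 is a splicing factor of heart muscle, and its mutations cause dilated cardiomyopathy. The labels used here name neither the exact mutation nor the sex of the mice, and a passage of their library protocol speaks of CD45+ immune cells although the source is given as total cardiac nuclei.

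The cytosolic ribosome is built from ribosomal RNA and a fixed set of proteins, made in roughly equal numbers and joined to the RNA in the nucleolus. Most of their mRNAs begin with a tract of pyrimidines (the 5′ TOP motif), through which mTORC1 controls their translation as a group. Striated muscle has its own form of Rpl3, Rpl3l, which replaces Rpl3 in a share of the ribosomes of adult heart and skeletal muscle. In nuclei the counts are of transcripts not yet exported, mixed with cytoplasmic RNA that clings to the nuclei or floats in the droplets. Whether reads in introns were counted is not given in the sources used here.

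RefSeq promoters (build GRCm38.p6) were at hand for 64 of the 84 members. A set of these is shown because it sets the muscle paralog beside members with and without a run of pyrimidines near the start. Each window of 30 bases holds 15 bases before and 15 bases from the annotated start on. Capitals mark an unbroken run of at least 8 C or T on the coding strand, the length searched for as a pyrimidine tract. The run had to reach to within 10 bases of the start on either side. It may thus lie wholly before the annotated start, as in Rpl13 and Rps27l, and then outside the annotated mRNA.
Rpl3l, chr17:24727811-24727840, + strand: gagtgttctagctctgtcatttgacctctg
Rpl13, chr8:123102335-123102364, + strand: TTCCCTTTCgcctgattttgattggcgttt
Rplp2, chr7:141447636-141447665, + strand: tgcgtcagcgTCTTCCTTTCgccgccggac
Rpl28, chr7:4792950-4792979, + strand: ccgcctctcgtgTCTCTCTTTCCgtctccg
Rps27, chr3:90213634-90213663, - strand: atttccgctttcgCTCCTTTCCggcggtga
Rps27l, chr9:66946071-66946100, + strand: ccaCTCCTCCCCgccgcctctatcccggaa
Rpl22, chr4:152325711-152325740, + strand: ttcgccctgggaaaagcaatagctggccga
Rpl22l1, chr3:28805493-28805522, + strand: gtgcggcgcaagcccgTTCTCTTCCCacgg
Such a run stood in 27 of the 64 members, or 42.2%, against 3743 of 27025 genes, or 13.9%. The longest run in Rpl3l was 5 bases. The ubiquitous Rpl22 lacked a run of 8 and its paralog Rpl22l1 had one, whereas both Rps27 and Rps27l had one. A match describes letters at an annotated start and no binding or initiation.

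RefSeq gives 2 starts for Rpl3l, and the 250 bases before the upstream one are shown because Rpl3l is the member that marks muscle in these data. Capitals mark CANNTG, which reads the same on both strands and is the E-box that myogenic bHLH factors and others can bind. It occurred 3 times in this window and once in the window before the other start, and at least once in 46.9% of the members' promoters and 66.0% of all.
Rpl3l, chr17:24727576-24727825, + strand: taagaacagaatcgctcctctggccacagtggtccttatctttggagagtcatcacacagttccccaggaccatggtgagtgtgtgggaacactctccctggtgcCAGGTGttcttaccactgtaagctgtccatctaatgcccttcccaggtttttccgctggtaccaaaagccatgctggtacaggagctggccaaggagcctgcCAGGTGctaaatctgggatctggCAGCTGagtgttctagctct

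After removal of likely doublets, 13144 nuclei of the corrected library, 10443 of RBM20 homo, 8871 of RBM20 het and 8681 of WT were analysed, with median depths between 2362 and 3146 UMIs. Pairs of libraries shared 26 to 56 barcodes. Nuclei were clustered without ribosomal protein and mitochondrial genes, and 13 classes were called "-like" after markers enriched in them. Ventricular cardiomyocyte-like nuclei formed 2 clusters that split by library. The first held 2827 corrected, 83 RBM20 homo, 2278 RBM20 het and 2899 WT nuclei, with 12 of 14 markers enriched, and the second held 248 corrected, 2871 RBM20 homo, 118 RBM20 het and 37 WT nuclei, with 4 of 14 enriched over all other nuclei, the first cluster included. Features named ABE_C and ABE_N had 2378 and 3255 UMIs in the corrected ventricular cardiomyocyte-like nuclei and 0 in the other 3 libraries. Levels below are in CPM: within 1 class of 1 library, the pooled UMIs of a gene divided by those of all genes not encoded in mitochondria, times 1e6. Intervals are 95% intervals of counting error alone. With 1 library per genotype no difference was tested and none can be told apart from a difference between preparations.

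As a share of UMIs, ribosomal protein transcripts were lowest in cardiomyocytes among the named classes. In ventricular cardiomyocyte-like nuclei the core members together had 1353 CPM (1335 to 1371) in the corrected library, 1448 CPM (1431 to 1465) in RBM20 homo and 1277 CPM (1259 to 1295) in RBM20 het, against 1525 CPM (1506 to 1544) in WT. A nucleus held on average 6.87 core UMIs in corrected, 9.66 in RBM20 homo and 8.20 in RBM20 het nuclei, against 8.35 in WT. Per nucleus the class was not the lowest in WT. Endothelial-like WT nuclei held 7.87, fibroblast-like 6.31, smooth muscle-like 5.69 and pericyte-like 5.13, and the other named classes held more than 8.35. Depth also differed between classes. At 2000 to 4000 UMIs, WT had 1979 CPM in cardiomyocyte-like and 2335 CPM in fibroblast-like nuclei. In CPM over all depths, cardiomyocyte-like nuclei were highest in WT and lowest in RBM20 het, apart by 0.26 on the log2 scale. Nuclei without any core UMI were 0.813% in corrected, 0.305% in RBM20 homo and 0.292% in RBM20 het nuclei, against 0.204% in WT. Fibroblast-like nuclei had 2405 in corrected, 3073 in RBM20 homo and 2293 CPM in RBM20 het nuclei, against 2424 CPM in WT, and the RBM20 homo library stood above the other 3. Endothelial-like nuclei had 3595 in corrected, 5048 in RBM20 homo and 3631 CPM in RBM20 het nuclei, against 4599 CPM in WT. Here RBM20 homo was again the highest, and the corrected and RBM20 het libraries lay together below WT.

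Over all members, WT fibroblast-like nuclei stood above WT ventricular cardiomyocyte-like nuclei by 0.45 on the log2 scale, macrophage-like nuclei by 0.70 and endothelial-like nuclei by 1.36. These sums include the muscle paralog Rpl3l, with 280.5 CPM in the WT cardiomyocyte-like nuclei. The gaps of the core alone were wider. It had 1525 CPM in cardiomyocyte-like, 2424 in fibroblast-like, 2881 in macrophage-like and 4599 CPM in endothelial-like WT nuclei. Mesothelial-like nuclei had 3757 in corrected, 6007 in RBM20 homo and 5462 CPM in RBM20 het nuclei, against 3565 CPM in WT, from 25 to 82 nuclei a library. Endocardial-like nuclei had 5220 in corrected, 5056 in RBM20 homo and 3999 CPM in RBM20 het nuclei, against 3866 CPM in WT. Smooth muscle-like nuclei had 1982 in corrected, 3007 in RBM20 homo and 2164 CPM in RBM20 het nuclei, against 2318 CPM in WT, next above the cardiomyocytes in every library but RBM20 homo. An unnamed cluster of mostly shallow nuclei, whose leading genes were those of haemoglobin, mitochondria and the cytoplasm, had far more, with 6154 in corrected, 16510 in RBM20 homo and 7381 CPM in RBM20 het nuclei, against 8063 CPM in WT. What free RNA adds to the named classes was not tested.

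**Figure D1:**
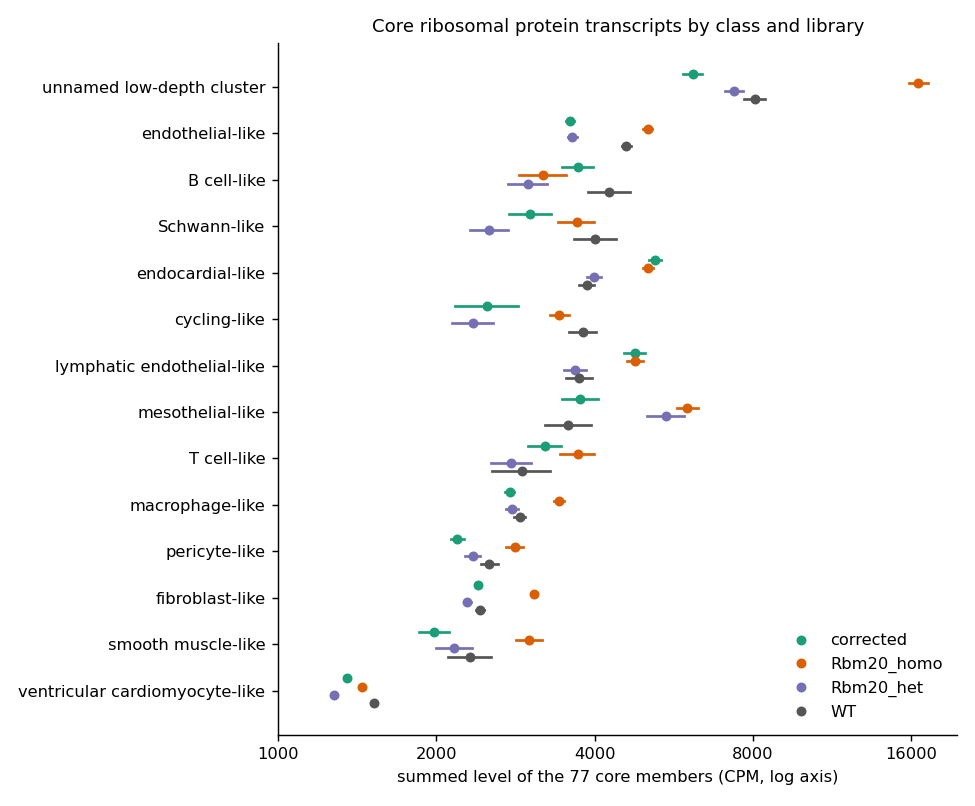
Summed CPM of the 77 core ribosomal proteins in each named class and in the unnamed low-depth cluster, 1 point per library with its 95% counting interval. Ventricular cardiomyocyte-like nuclei lie between 1277 and 1525 CPM, below every other class in every library.

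Within the cardiomyocyte class the level followed depth. When the nuclei of each library were cut into 4 equal bins of depth, in the shallowest bin the core had 1968 in corrected, 1927 in RBM20 homo and 1746 CPM in RBM20 het nuclei, against 2111 CPM in WT. In the deepest bin they had 1146 in corrected, 1217 in RBM20 homo and 1054 CPM in RBM20 het nuclei, against 1255 CPM in WT. Levels therefore lay lower in deeper nuclei in all 4 libraries, by more than the libraries differed from each other in either bin. The median depth of the class was 4505 in corrected, 5898 in RBM20 homo and 5690.5 UMIs in RBM20 het nuclei, against 4853 UMIs in WT. Fibroblast-like nuclei were lower in the deepest bin too, in every library. They went from 2827 to 2290 CPM in corrected, 3465 to 2880 CPM in RBM20 homo, 2925 to 2144 CPM in RBM20 het and 3032 to 2172 CPM in WT. Endothelial-like nuclei had no common direction, with 4837 and 5233 CPM in RBM20 homo but 3816 and 3687 CPM in RBM20 het.

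**Figure D2:**
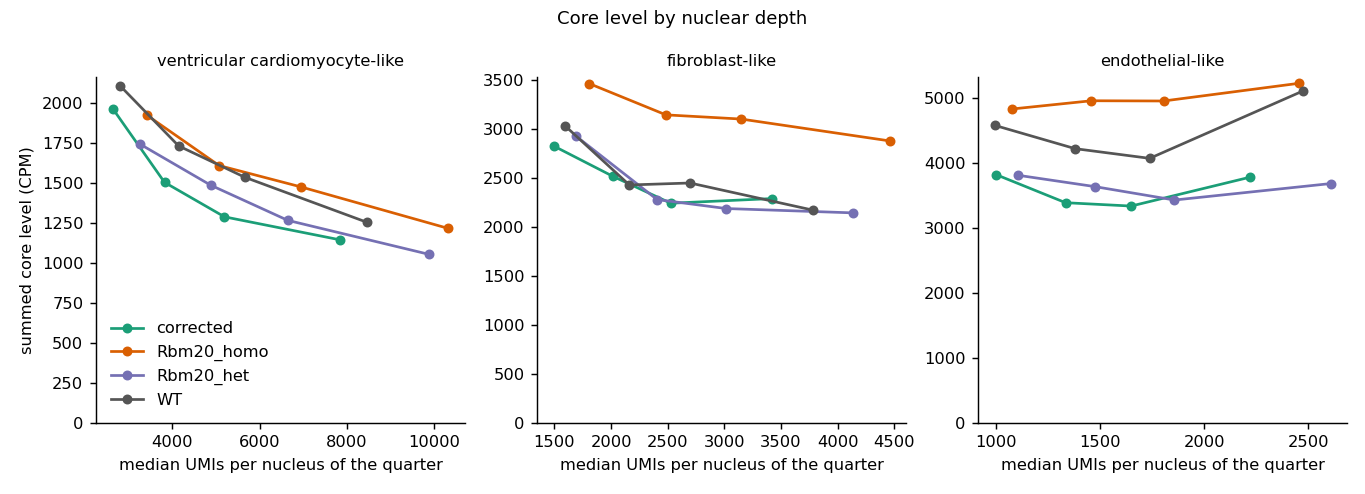
Summed core CPM (y axis) against the median UMIs per nucleus (x axis) of 4 bins of depth of each library, in ventricular cardiomyocyte-like (left), fibroblast-like (middle) and endothelial-like nuclei (right), 1 line per library. In cardiomyocyte-like nuclei all 4 libraries decline, from between 1746 and 2111 CPM in the shallowest bin to between 1054 and 1255 CPM in the deepest. In fibroblast-like nuclei all 4 libraries also lie lower in the deepest bin than in the shallowest.

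Among the single proteins of the large subunit, Rpl3l had most UMIs of all members, 19658 over the 4 libraries. Rpl3l (ENSMUSG00000002500, GRCm38 chr17:24727820-24736143, + strand, 12 exon blocks with 1643 exonic and 6681 intronic bases) overlaps no other counted gene. In ventricular cardiomyocyte-like nuclei it had 246 CPM (238 to 254) in the corrected library, 87.5 CPM (83.4 to 91.8) in RBM20 homo and 253 CPM (245 to 261) in RBM20 het, against 280.5 CPM (272 to 289) in WT. The RBM20 homo library stood apart, and the intervals of the other 3 lay far above its own. Rpl3l was 3.20-fold lower in RBM20 homo than in WT (log2 -1.68, interval -1.76 to -1.60), a value below which lay 2.81% of all genes tested. In the corrected library it was 2.81-fold higher than in RBM20 homo (log2 1.49, 1.41 to 1.57) and below WT by a log2 ratio of -0.19 (-0.25 to -0.13). RBM20 het differed from WT by -0.15 (-0.21 to -0.08). A UMI of Rpl3l was present in 57.3% of corrected, 32.5% of RBM20 homo and 68.3% of RBM20 het nuclei, against 66.9% of WT nuclei. With every nucleus thinned to 1000 UMIs the shares were 19.2% in corrected, 8.74% in RBM20 homo and 20.9% in RBM20 het nuclei, against 23.7% in WT.

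Within each cardiomyocyte cluster the Rpl3l levels of RBM20 homo and WT lay closer together than in the class as a whole. In the cluster that held most corrected, RBM20 het and WT cardiomyocyte nuclei, Rpl3l had 257 in corrected, 237 in RBM20 homo and 258 CPM in RBM20 het nuclei, against 284 CPM in WT, the RBM20 homo value resting on 112 UMIs of 83 nuclei. In the cluster that held most RBM20 homo nuclei it had 111 in corrected, 83.9 in RBM20 homo and 164 CPM in RBM20 het nuclei, against 66.5 CPM in WT, the WT value resting on 16 UMIs of 37 nuclei. Low Rpl3l was thus present in the few WT and corrected nuclei of that cluster too. These clusters were built from other genes of the same nuclei, so genotype and cluster cannot be told apart here.

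Rpl3l was also counted outside cardiomyocytes, where Myh6, the adult cardiac myosin heavy chain, is given beside it as a transcript that other heart cells should lack. Fibroblast-like nuclei had Rpl3l at 22.1 in corrected, 6.23 in RBM20 homo and 17.8 CPM in RBM20 het nuclei, against 17.9 CPM in WT. That was 8.98% in corrected, 7.11% in RBM20 homo and 7.03% in RBM20 het nuclei, against 6.37% of its cardiomyocyte level in WT. The same shares of Myh6 were 9.11% in corrected, 6.84% in RBM20 homo and 6.17% in RBM20 het nuclei, against 7.30% in WT. A UMI of Rpl3l occurred in 4.997% of corrected, 1.63% of RBM20 homo and 4.90% of RBM20 het fibroblast-like nuclei, against 4.23% in WT. Their median depths were 2262 in corrected, 2814 in RBM20 homo and 2685 UMIs in RBM20 het nuclei, against 2430 UMIs in WT. Ttn and Ryr2 lay between 5.07% and 8.12% in fibroblast-like nuclei, but Mb, the myoglobin gene, stood far higher. Its shares were 74.7% in corrected, 62.0% in RBM20 homo and 56.9% in RBM20 het fibroblast-like nuclei, against 66.2% in WT. In endothelial-like nuclei Mb stood at 130.6% in corrected, 164.9% in RBM20 homo and 121.4% in RBM20 het nuclei, against 159.5% in WT. The part of free RNA in these values was not tested. In endothelial-like nuclei Rpl3l stood at 15.01% in corrected, 6.05% in RBM20 homo and 12.01% in RBM20 het nuclei, against 15.1% in WT, and Myh6 at 14.8% in corrected, 13.4% in RBM20 homo and 11.2% in RBM20 het nuclei, against 15.9% of its cardiomyocyte level in WT. Macrophage-like nuclei had Rpl3l at 25.8 in corrected, 7.52 in RBM20 homo and 26.1 CPM in RBM20 het nuclei, against 44.9 CPM in WT, and in 1 macrophage cluster it had 33.9 in corrected, 14.0 in RBM20 homo and 33.1 CPM in RBM20 het nuclei, against 81.5 CPM in WT. RBM20 homo was thus the lowest library in all 3 classes. Rpl3l gave the lowest member ratio in RBM20 homo over WT at -1.52 (-2.02 to -1.03) in fibroblast-like and -3.00 (-4.01 to -2.13) in endothelial-like nuclei, where RBM20 homo had 12 UMIs.

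The ubiquitous Rpl3, which Rpl3l replaces in muscle (ENSMUSG00000060036, GRCm38 chr15:80077791-80091868, - strand, overlapping Syngr1 on the other strand), stood the other way. In ventricular cardiomyocyte-like nuclei Rpl3 had 12.99 CPM (11.3 to 14.9) in the corrected library, 16.6 CPM (14.8 to 18.5) in RBM20 homo and 11.1 CPM (9.51 to 12.9) in RBM20 het, against 10.4 CPM (8.88 to 12.1) in WT. The RBM20 homo interval lay above those of RBM20 het and WT and just touched that of the corrected library. Rpl3 was the member with the highest ratio of RBM20 homo over WT in this class, 1.60-fold (log2 0.67, 0.40 to 0.95). The corrected library had a log2 ratio of -0.35 (-0.61 to -0.10) over RBM20 homo and 0.32 (0.02 to 0.63) over WT. Of the UMIs of the pair, Rpl3l held 94.98% (94.3 to 95.6) in the corrected library, 84.1% (82.4 to 85.6) in RBM20 homo and 95.8% (95.1 to 96.4) in RBM20 het, against 96.4% (95.9 to 96.9) in WT. The muscle form remained the main form in all 4 libraries. Per kilobase of exon, Rpl3l had 149.7 in corrected, 53.3 in RBM20 homo and 154 CPM in RBM20 het nuclei, against 171 CPM in WT, the first of the 84 members in every library but RBM20 homo, where it was second after Rpl36. Rpl3 had 4.09 in corrected, 5.23 in RBM20 homo and 3.50 CPM per kilobase in RBM20 het nuclei, against 3.27 CPM in WT. With the 3′ method a UMI stands for 1 transcript whatever its length. Values per kilobase are therefore not levels, and their ranks depend on the annotated exons. In plain CPM Rpl3l stood above every core member in all 4 libraries. The highest core member had 50.5 CPM in RBM20 homo and 48.4 CPM in WT.

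**Figure D3:**
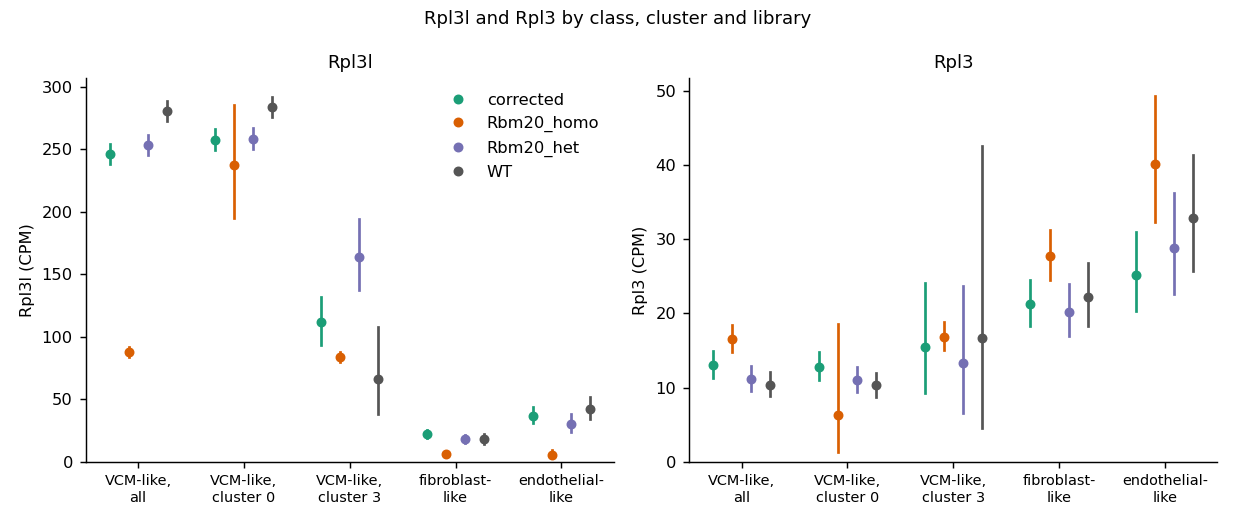
CPM of Rpl3l (left) and Rpl3 (right) by library, with 95% counting intervals, in ventricular cardiomyocyte-like nuclei (VCM-like), in their 2 clusters (0 and 3, the second with most RBM20 homo nuclei), and in fibroblast-like and endothelial-like nuclei. Over all VCM-like nuclei Rpl3l stands at 87.5 CPM in RBM20 homo and at 246 CPM or more in the other 3 libraries, while Rpl3 is highest in RBM20 homo at 16.6 CPM.

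A second pair with a muscle form, outside the members, showed a smaller difference in the same nuclei. Eef1a2, the elongation factor 1A of muscle and neurons, had 104 in corrected, 84.8 in RBM20 homo and 92.7 CPM in RBM20 het nuclei, against 114 CPM in WT. Its ubiquitous partner Eef1a1 had 12.7 in corrected, 20.04 in RBM20 homo and 9.95 CPM in RBM20 het nuclei, against 10.95 CPM in WT. Eef1a2 held 89.1% in corrected, 80.9% in RBM20 homo and 90.3% in RBM20 het nuclei, against 91.2% of the UMIs of the pair in WT, so the muscle form had its smallest share in RBM20 homo in both pairs.

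The other paralog pairs did not share 1 pattern. Rpl22l1 held 40.3% (35.3 to 45.4) in corrected, 35.8% (31.7 to 40.1) in RBM20 homo and 38.2% (33.0 to 43.6) in RBM20 het nuclei of the UMIs of Rpl22l1 and Rpl22, against 37.4% (32.7 to 42.2) in WT, and all 4 intervals overlapped. Rps27l held 17.1% in corrected, 15.7% in RBM20 homo and 11.7% in RBM20 het nuclei, against 16.0% of the pair with Rps27 in WT. Rpl7l1, a homolog of Rpl7 that acts in ribosome assembly, held 53.8% in corrected, 54.7% in RBM20 homo and 49.8% in RBM20 het nuclei, against 55.1% of its pair in WT. In these pairs too all 4 intervals overlapped. Rps27rt had 4 in corrected, 3 in RBM20 homo and 7 UMIs in RBM20 het nuclei, against 9 UMIs in WT, too few for a ratio. Rpl36al, an intronless relative of Rpl36a, had 8.77 in corrected, 8.73 in RBM20 homo and 7.93 CPM in RBM20 het nuclei, against 14.1 CPM in WT, whereas Rpl36a had 6.21 in corrected, 7.15 in RBM20 homo and 5.14 CPM in RBM20 het nuclei, against 5.85 CPM in WT. Rpl36al held 58.5% (51.9 to 64.9) in corrected, 55.0% (49.3 to 60.6) in RBM20 homo and 60.7% (53.6 to 67.5) in RBM20 het nuclei, against 70.7% (65.4 to 75.6) of its pair in WT, whose interval lay above those of the corrected and RBM20 homo libraries. Rpl36al was lower than WT in each of the other 3 libraries, at log2 ratios over WT between -0.83 and -0.69, and Rpl36a differed from WT by less than its counting error in all 3. Rps19bp1 had 3.33 in corrected, 2.54 in RBM20 homo and 2.15 CPM in RBM20 het nuclei, against 3.24 CPM in WT, within counting error.

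With Rpl3l set aside, the core members of RBM20 homo cardiomyocyte-like nuclei were close to WT over the class as a whole. The summed core had a log2 ratio of -0.08 (-0.10 to -0.05) for RBM20 homo over WT, and 32 of 77 members were higher and 45 lower. The median over all 13073 genes tested was -0.19, and 55 of the 77 core members lay above it. Scaled by the median of ratios of well-counted genes, the same sum was 0.12 higher in RBM20 homo, so the direction depends on the scale. In nuclei of like depth the ratio was 0.00 at 2000 to 4000 UMIs, 0.01 at 4000 to 6000 UMIs and 0.04 at 6000 to 9000 UMIs. Of the 84 members, 83 had at least 50 UMIs in both libraries together. Past 1.5-fold, 2 of these were higher, Rpl3 and Rps23, beside 12.0% of all genes, and 3 were lower, Rpl3l, Rpl36 and Rpl36al, beside 22.1% of all genes. In either direction this was 5 members, beside 34.1% of all genes. Other RNAs differed between the libraries too: Malat1, a nuclear noncoding RNA, took 15.4% in corrected, 24.1% in RBM20 homo and 15.3% in RBM20 het nuclei, against 14.4% of UMIs in WT. Abundant cytoplasmic cardiomyocyte mRNAs (a list of 15) had a median log2 ratio of -0.80, with 10 of 15 lower past 1.5-fold. The part of these mRNAs in the member ratios was not tested. With Malat1 left out of the total, the core had 1599.6 in corrected, 1907 in RBM20 homo and 1509 CPM in RBM20 het nuclei, against 1782 CPM in WT, so that RBM20 homo then lay above WT.

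Rpl36, a small protein of the large subunit, was the core member with the lowest ratio of RBM20 homo over WT. It had 24.9 in corrected, 22.5 in RBM20 homo and 30.7 CPM in RBM20 het nuclei, against 42.3 CPM in WT. The other 3 libraries were all below WT, at log2 ratios of -0.76 (-0.95 to -0.58) for corrected, -0.91 (-1.08 to -0.73) for RBM20 homo and -0.46 (-0.63 to -0.29) for RBM20 het, and the corrected library differed from RBM20 homo by 0.14 (-0.06 to 0.34). In fibroblast-like nuclei Rpl36 was also among the 3 lowest member ratios of RBM20 homo over WT, at -0.45 (-0.69 to -0.21). Corrected over RBM20 homo was 0.15 (-0.07 to 0.36) there. Its levels were 40.4 in corrected, 36.5 in RBM20 homo and 41.9 CPM in RBM20 het nuclei, against 49.8 CPM in WT. The annotation lists 9 pseudogenes named after it, and reads may be split among such copies.

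On the high side, Rps23, a protein of the decoding centre, had 11.5 in corrected, 14.6 in RBM20 homo and 12.7 CPM in RBM20 het nuclei, against 9.71 CPM in WT. RBM20 homo over WT was 0.59 (0.30 to 0.88), and RBM20 het and the corrected library lay between them. Rpl39, at the exit tunnel of the large subunit, had 8.13 in corrected, 12.8 in RBM20 homo and 5.33 CPM in RBM20 het nuclei, against 9.21 CPM in WT. It was highest in RBM20 homo and lowest in RBM20 het, whose log2 ratio over WT was -0.79 (-1.20 to -0.39). Rps2, whose gene overlaps Snhg9 on the other strand, was lower in RBM20 homo by a log2 ratio of -0.52, with 37.8 in corrected, 33.7 in RBM20 homo and 34.5 CPM in RBM20 het nuclei, against 48.4 CPM in WT.

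**Figure D4:**
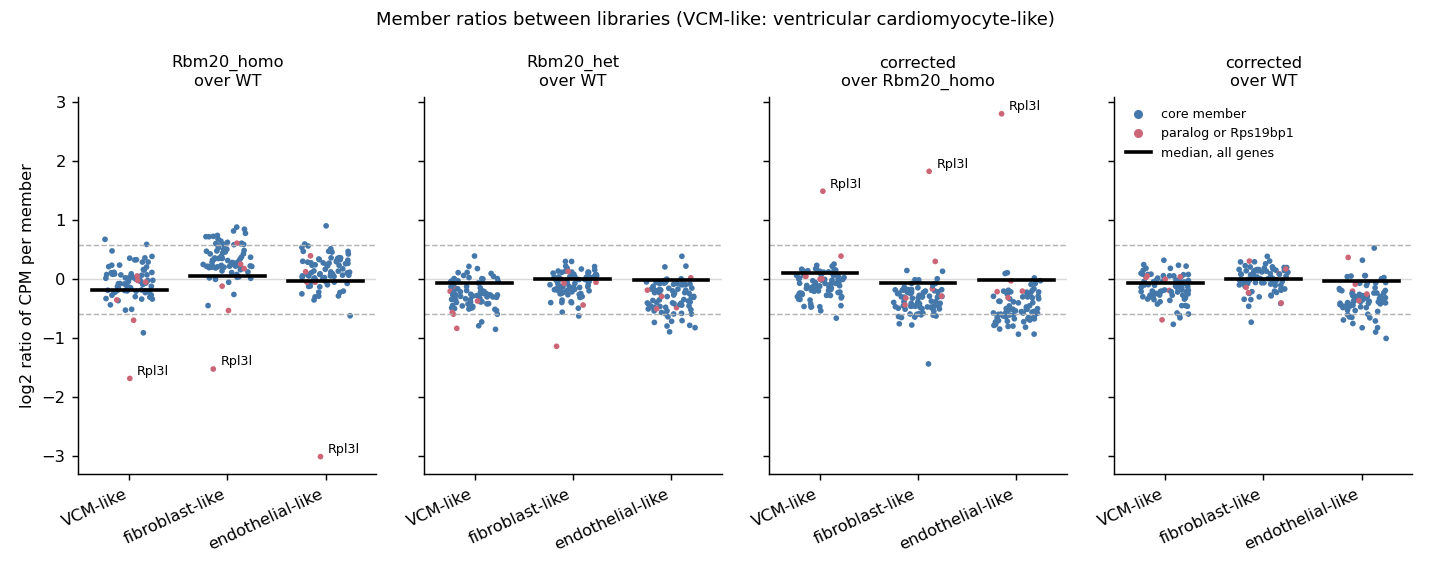
Log2 ratio of CPM of each member with at least 50 UMIs, by class, in 4 comparisons between libraries; bars give the median over all genes and dashed lines 1.5-fold. Rpl3l lies below the other members in RBM20 homo over WT and above them in corrected over RBM20 homo in all 3 classes, and the core members of fibroblast-like nuclei lie mostly above 0 in RBM20 homo over WT.

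Over all depths together, RBM20 het cardiomyocyte-like nuclei had the lowest core level. Their log2 ratio over WT was -0.26 (-0.28 to -0.23), with 13 of 77 core members higher and 64 lower, beside a median over all genes of -0.06. At matched depth it was -0.17, -0.16 and -0.17 in the 3 depth ranges. There the corrected library was the lowest instead, with 1742, 1329 and 1169 CPM, against 1763, 1443 and 1235 CPM in RBM20 het. Past 1.5-fold, 0 of 83 members were higher, beside 5.58% of all genes, and 6 were lower, beside 7.53% (either direction 13.1%): Rpl38, Rpl36al, Rpl39, Rps26, Rps19bp1 and Rpl10a. Rpl38, linked to the translation of homeobox mRNAs in mouse embryos, had 17.7 in corrected, 21.1 in RBM20 homo and 14.8 CPM in RBM20 het nuclei, against 26.6 CPM in WT. Its log2 ratio of RBM20 het over WT was -0.85 (-1.09 to -0.61), and the other 3 libraries were all below WT. Rps26 had 14.7 in corrected, 18.3 in RBM20 homo and 10.6 CPM in RBM20 het nuclei, against 17.5 CPM in WT, and was lowest in RBM20 het.

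The corrected cardiomyocyte-like nuclei had less of the core than both RBM20 homo and WT. The log2 ratio was -0.10 (-0.12 to -0.07) over RBM20 homo, with 23 of 77 core members higher and 54 lower, while the median over all genes was 0.11. Over WT it was -0.17 (-0.20 to -0.15), with 18 higher and 59 lower, beside a median of -0.06. At matched depth the ratios over RBM20 homo were -0.18, -0.29 and -0.28, and those over WT -0.18, -0.28 and -0.25. Both comparisons use the corrected library, so they are not independent. Past 1.5-fold over RBM20 homo, Rpl3l was higher, beside 15.3% of all genes, and Rpl39 lower, beside 10.2% (either direction 25.5%). Over WT, 0 of 83 members were higher, beside 6.12% of all genes, and 5 were lower, beside 9.0% (either direction 15.1%): Rpl36, Rpl36al, Rpl10a, Rps28 and Rpl38. Rpl10a had 18.9 in corrected, 26.2 in RBM20 homo and 19.7 CPM in RBM20 het nuclei, against 29.7 CPM in WT, low in the corrected and RBM20 het libraries. Its gene overlaps CT025652.2 on the other strand, exons included.

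The proteins of the P stalk, which recruits elongation factors, and the laminin-receptor homolog Rpsa did not share 1 order. In cardiomyocyte-like nuclei Rplp0 had 13.9 in corrected, 17.0 in RBM20 homo and 11.5 CPM in RBM20 het nuclei, against 13.3 CPM in WT. Rplp1 had 23.6 in corrected, 23.2 in RBM20 homo and 18.3 CPM in RBM20 het nuclei, against 22.3 CPM in WT. Rplp2 had 21.4 in corrected, 18.2 in RBM20 homo and 17.6 CPM in RBM20 het nuclei, against 22.3 CPM in WT. Rplp0 was highest in RBM20 homo, whereas Rplp2 was lower there than in WT, by a log2 ratio of -0.29 (-0.51 to -0.08). Rpsa had 22.3 in corrected, 23.6 in RBM20 homo and 19.1 CPM in RBM20 het nuclei, against 26.9 CPM in WT, lowest in RBM20 het.

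Among the core members with most UMIs in cardiomyocyte-like nuclei, the libraries lay closer together for Rpl13 than for Rpl6 and Rpl41. Rpl6 had 37.1 in corrected, 50.5 in RBM20 homo and 33.0 CPM in RBM20 het nuclei, against 42.9 CPM in WT. Rpl13 had 36.1 in corrected, 34.9 in RBM20 homo and 33.6 CPM in RBM20 het nuclei, against 41.9 CPM in WT. Rpl6 was highest in RBM20 homo, and Rpl13 in WT. Rpl41, the smallest ribosomal protein, had 28.7 in corrected, 34.3 in RBM20 homo and 25.8 CPM in RBM20 het nuclei, against 36.2 CPM in WT. The median core member had 15.6 in corrected, 17.4 in RBM20 homo and 15.4 CPM in RBM20 het nuclei, against 17.7 CPM in WT, and the 10 highest held 24.5% in corrected, 23.7% in RBM20 homo and 25.6% in RBM20 het nuclei, against 26.3% of core UMIs in WT. The large subunit had 1.25 times the UMIs of the small one in corrected, 1.36 times in RBM20 homo and 1.23 times in RBM20 het nuclei, against 1.28 times in WT.

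In fibroblast-like nuclei nearly the whole group was higher in RBM20 homo. The summed core had a log2 ratio over WT of 0.34 (0.31 to 0.37), and 73 of 77 core members were higher and 4 lower, beside a median over all genes of 0.05. At matched depth it was 0.41 at 2000 to 4000 UMIs and 0.40 at 4000 to 6000 UMIs. Past 1.5-fold, 18 of 83 members were higher, beside 14.2% of all genes, and Rpl3l was lower, beside 8.7%. Rpl39 had 17.3 in corrected, 29.2 in RBM20 homo and 18.1 CPM in RBM20 het nuclei, against 16.3 CPM in WT, and Rpl36a had 9.97 in corrected, 15.2 in RBM20 homo and 10.6 CPM in RBM20 het nuclei, against 8.63 CPM in WT. In both genes the RBM20 homo library alone was high.

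Rpl6 and Rpsa showed a like order in fibroblast-like nuclei. Rpl6 had 71.2 in corrected, 100.1 in RBM20 homo and 59.6 CPM in RBM20 het nuclei, against 60.8 CPM in WT. Rpsa had 36.1 in corrected, 54.3 in RBM20 homo and 32.5 CPM in RBM20 het nuclei, against 31.7 CPM in WT. Both were highest in RBM20 homo, next in the corrected library, and close together in RBM20 het and WT. Rpl10a was an exception, with 41.7 in corrected, 57.7 in RBM20 homo and 52.6 CPM in RBM20 het nuclei, against 69.0 CPM in WT.

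The corrected fibroblast-like nuclei had less of the core than RBM20 homo and were close to WT. The core had a log2 ratio of -0.35 (-0.38 to -0.33) over RBM20 homo, with 3 of 77 members higher and 74 lower, beside a median of -0.07 over all genes. Over WT it was -0.01 (-0.04 to 0.02), with 41 of 76 higher. At matched depth the ratio over WT was -0.02 at 2000 to 4000 UMIs and -0.09 (-0.19 to 0.00) at 4000 to 6000 UMIs, but 0.57 (0.35 to 0.80) in the 25 corrected and 18 WT nuclei of 6000 to 9000 UMIs, where the ratio over RBM20 homo was 0.13 (-0.01 to 0.27). With classes taken from marker scores, the summed members had -0.051 (-0.085 to -0.017) over WT. Past 1.5-fold over RBM20 homo, 11 of 83 members were lower, beside 12.4% of all genes, and Rpl3l was higher, beside 8.15%. Over WT, Rpl10a was lower, beside 5.58% of all genes, and 0 of 82 members were higher, beside 6.57%. Rpl15 gave the lowest ratio over RBM20 homo, -1.43, on 20 UMIs in the corrected and 58 UMIs in the RBM20 homo nuclei. RBM20 het over WT was -0.08 (-0.11 to -0.05), with 30 of 76 core members higher. Past 1.5-fold there, 0 of 82 members were higher, beside 3.91% of all genes, and 2 were lower, Rps19bp1 and Rpl37, beside 3.89%.

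The interval of RBM20 homo over WT lay above 0 in 2 of the 3 fibroblast clusters and spanned 0 in the one with most RBM20 homo nuclei. In the cluster led by Col6a6 and Gfra1 (2604 corrected, 305 RBM20 homo, 1648 RBM20 het and 1257 WT nuclei), RBM20 homo over WT was 0.40, and in that led by Efhd1 and Has2 (849 corrected, 80 RBM20 homo, 505 RBM20 het and 596 WT nuclei) it was 0.43. In the cluster led by Cilp, which held most RBM20 homo nuclei (189 corrected, 2682 RBM20 homo, 155 RBM20 het and 62 WT nuclei), it was 0.13 (-0.01 to 0.26). Corrected over RBM20 homo was -0.42, -0.40 and -0.21 in these clusters. In the first cardiomyocyte cluster, with 83 RBM20 homo nuclei, RBM20 homo over WT was -0.22 (-0.33 to -0.10). In the second, with 37 WT nuclei, it was -0.16 (-0.30 to -0.008). Both lay further below WT than the whole class, at -0.08. Corrected over RBM20 homo was 0.04 (-0.07 to 0.16) in the first and -0.08 (-0.15 to -0.01) in the second.

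In endothelial-like nuclei RBM20 homo and WT were high, and the corrected and RBM20 het libraries low. RBM20 homo over WT was 0.13 (0.10 to 0.17), with 56 of 76 core members higher. Corrected over RBM20 homo was -0.49 (-0.53 to -0.45), with 3 of 76 higher. Corrected over WT was -0.36 (-0.39 to -0.32), with 8 of 76 higher. RBM20 het over WT was -0.34 (-0.38 to -0.30), with 5 of 76 higher. The medians over all genes lay between -0.03 and -0.01 in these 4 comparisons. In the larger of the 2 endothelial clusters corrected over RBM20 homo was -0.52, and in the smaller it was -0.32.

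Past 1.5-fold in endothelial-like nuclei, corrected over RBM20 homo had 28 of 81 members lower, beside 9.96% of all genes, and Rpl3l higher, beside 7.94%. Corrected over WT had 12 members lower, beside 6.25%, and 0 higher, beside 5.16%. RBM20 het over WT had 11 lower, beside 6.09%, and 0 higher, beside 4.3%. RBM20 homo over WT had 2 higher, Rpl22 and Rps15a, beside 9.92%, and 2 lower, Rpl3l and Rpl10a, beside 9.43%. Rpl41 had 73.0 in corrected, 131 in RBM20 homo and 67.5 CPM in RBM20 het nuclei, against 119 CPM in WT. Rpl11, which binds Mdm2 when ribosome assembly fails, had 44.2 in corrected, 84.3 in RBM20 homo and 49.6 CPM in RBM20 het nuclei, against 60.7 CPM in WT. Rpl37 had 41.3 in corrected, 68.0 in RBM20 homo and 55.0 CPM in RBM20 het nuclei, against 82.7 CPM in WT, at a log2 ratio of -1.002 in corrected over WT. The corrected library was the lowest for Rpl11 and Rpl37, and RBM20 het for Rpl41. Rpl22 departed from the group, with 30.9 in corrected, 40.2 in RBM20 homo and 28.1 CPM in RBM20 het nuclei, against 21.5 CPM in WT, the lowest value being that of WT.

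**Figure D5:**
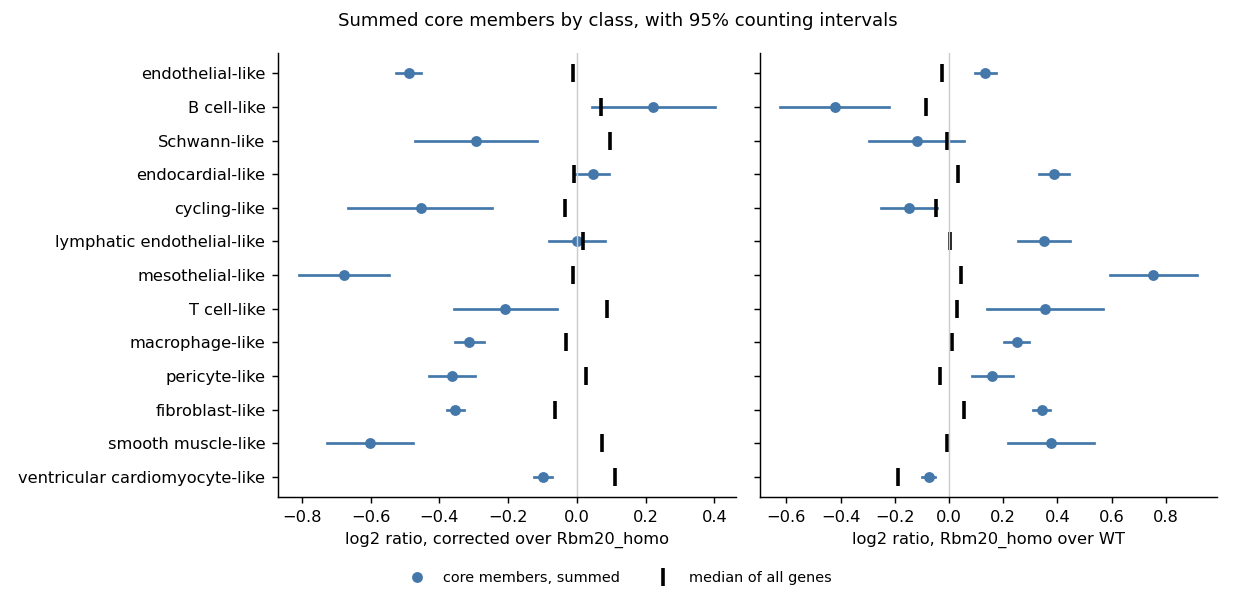
Log2 ratio of the summed core members by class, with 95% counting intervals, for corrected over RBM20 homo (left) and RBM20 homo over WT (right); black ticks give the median over all genes. In RBM20 homo over WT 9 of 13 class intervals lie above 0, and in corrected over RBM20 homo 10 of 13 lie below 0.

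Across the 13 named classes, the core interval of RBM20 homo over WT lay above 0 in 9 and below 0 in 3, the B cell-like, cycling-like and ventricular cardiomyocyte-like classes. For corrected over RBM20 homo it lay below 0 in 10 and above 0 in the B cell-like class. For corrected over WT, 8 lay below 0 and 2 above, and for RBM20 het over WT, 7 lay below and 1 above. Macrophage-like nuclei had core levels of 2757 in corrected, 3425 in RBM20 homo and 2785 CPM in RBM20 het nuclei, against 2881 CPM in WT. Pericyte-like nuclei had 2192 in corrected, 2820 in RBM20 homo and 2345 CPM in RBM20 het nuclei, against 2524 CPM in WT. In both, RBM20 homo was the highest library. Endocardial-like and lymphatic endothelial-like nuclei differed, since the corrected library there stayed at the RBM20 homo level, at log2 ratios of 0.05 and 0.00. These comparisons share the RBM20 homo or WT library and are not independent of each other.

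Members also differed in how they were spread over classes. A class in which a member had few UMIs was left out of its range, so members were compared over different classes. Within WT the widest range was that of Rpl3l over 4 classes, 3.97 on the log2 scale between ventricular cardiomyocyte-like and fibroblast-like nuclei. Next came Rps21 over 7 classes, with 157 CPM in lymphatic endothelial-like (52 UMIs) and 24.5 CPM in ventricular cardiomyocyte-like WT nuclei. The range was 2.68. No core member had a higher level in that lymphatic class, and members with fewer UMIs there could be left out of it. The rank of Rps21 therefore depends on which classes were kept. Rpl36a spanned 2.43 over 2 classes and Rps23 2.26 over 4. Among the classes kept, both were highest in endothelial-like and lowest in ventricular cardiomyocyte-like WT nuclei. The genes outside the members whose level followed the summed members most closely over the 52 sums of class and library were Fau at a Pearson r of 0.870, Ly6e at 0.841, Gm20559 at 0.830, Fth1 at 0.819 and H2-T23 at 0.816, of 10574 genes. Fau encodes the small-subunit protein Rps30, which the symbol rule leaves out. The sums of 1 library share its depth and free RNA, and no test was made.

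Among core members, level had little relation to gene structure. Spearman's rho of WT cardiomyocyte CPM was -0.01 with exon length, -0.16 with intron length and -0.12 with gene length over the 77 genes, which share 1 library and are not replicates. The 30 core genes with a snoRNA inside had a median log2 ratio of RBM20 homo over WT of -0.05 in cardiomyocyte-like and 0.34 in fibroblast-like nuclei, and the 47 without had -0.03 and 0.34. The 25 core members with a C or T run of at least 8 near the start had -0.12 in cardiomyocyte-like and 0.25 in fibroblast-like nuclei, and the 32 with a promoter but no such run had -0.02 and 0.37.

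In cardiomyocyte-like nuclei the TOP genes lay near the median core member, and the other lists of translation genes near or below the median over all genes. For RBM20 homo over WT, 18 elongation factor and other TOP genes outside the members had a median log2 ratio of -0.01, with 2 higher past 1.5-fold and 1 lower, beside 12.0% of all genes higher and 22.1% lower, shares that hold for the lists below too. Eef1a1 was one of those higher, at 0.87, and Eif3h the other, with 52.2 in corrected, 94.6 in RBM20 homo and 47.1 CPM in RBM20 het nuclei, against 44.1 CPM in WT. Of 22 ribosome biogenesis genes 0 were higher and 4 lower past 1.5-fold, with a median of -0.27. Bms1, a GTPase of small-subunit assembly, had 43.9 in corrected, 30.6 in RBM20 homo and 47.9 CPM in RBM20 het nuclei, against 67.8 CPM in WT, and was below WT in the other 3 libraries. Of 12 RNA polymerase I genes 0 were higher and 3 lower, with a median of -0.34, and Polr1a, its largest subunit, had 78.2 in corrected, 60.4 in RBM20 homo and 85.2 CPM in RBM20 het nuclei, against 90.5 CPM in WT. Of 16 mTORC1 and TOP regulators 0 were higher and 2 lower, with a median of -0.22. Of 78 mitochondrial ribosomal protein genes 1 was higher and 12 lower, with a median of -0.20. The median over all genes was -0.19, and that over the core members -0.03.

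In fibroblast-like nuclei the TOP genes had the sign of the members, and the other lists stayed near 0. For RBM20 homo over WT, 14 of 17 TOP genes were higher, with a median of 0.19 and none past 1.5-fold, beside 14.2% of all genes. The medians were 0.08 for 22 ribosome biogenesis genes, 0.07 for RNA polymerase I, 0.01 for mTORC1 and TOP regulators and 0.10 for 77 mitochondrial ribosomal protein genes, beside 0.05 over all genes. For corrected over RBM20 homo the TOP median was -0.19 in fibroblast-like and -0.37 in endothelial-like nuclei. In endothelial-like nuclei 6 of 18 ribosome biogenesis genes were higher past 1.5-fold in that comparison, beside 7.94% of all genes, with a median of 0.27, while the core ribosomal proteins had a median of -0.52. The 15 abundant cytoplasmic cardiomyocyte mRNAs had medians in fibroblast-like nuclei of -0.72 for RBM20 homo over WT and 0.59 for corrected over RBM20 homo, and their part in the member ratios was not tested.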

How the data were processed

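The deposited files hold whole-number counts of UMIs per gene and barcode, with no normalization, 1 sparse matrix per library. Per the submitters' processing notes the data were made with Cell Ranger 6.1.1 and Seurat 4 on mm10 (GRCm38), whereas the file headers name Cell Ranger 4.0.0. Settings for introns and the barcode filter are not given in the sources used here. The matrices held 15153 barcodes for the corrected library, 11611 for RBM20 homo, 9734 for RBM20 het and 9494 for WT, with 51422458, 52370368, 42375104 and 37180791 UMIs.

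Barcodes with fewer than 300 genes or with over 5% of UMIs from mitochondria were dropped, and 1813, 1069, 749 and 713 of those kept, in that order of libraries, were removed as likely doublets, the highest Scrublet scores (scanpy) at a rate of 0.8% per 1000 barcodes. The remaining 41139 nuclei were clustered on 2000 variable genes without member, mitochondrial and ABE genes (30 components, 20 neighbours, Leiden resolution 0.8, 27 clusters). A cluster took a name from listed markers, by limits set after seeing the data. UMIs were summed per class and library. Ratios carry exact conditional binomial 95% intervals, levels exact Poisson and shares exact Clopper-Pearson intervals. Only the ratio intervals were checked on simulated data, which were Poisson counts. Such intervals cover counting error only. A gene entered a ratio with at least 50 UMIs in both libraries together.

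The members, lists and comparisons were chosen with earlier results of these data known. Named members are the P-stalk proteins, Rpsa, the paralogs with their parents, Rps19bp1, the 5 with most UMIs, the 5 highest and 5 lowest ratios in cardiomyocyte-like nuclei (3 and 3 in fibroblast-like and endothelial-like), the 5 with the widest class range and the 5 genes most alike. Some genes that the rule names are not reported here. Genes outside it, such as Eif3h, were chosen after their values were seen. Of the members, 23 overlap another counted gene, 22 of them on the opposite strand, and 56 have pseudogenes named after them. Python 3.11.15, scanpy 1.11.5, leidenalg 0.10.2, scipy 1.17.1 and pandas 2.3.3 were used.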

Additional observations from a re-analysis of the deposited data

Results flagged for a closer look

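The summed members differed in direction between classes under the same contrast. For RBM20 homo over WT the log2 ratio of all members was -0.23 in ventricular cardiomyocyte-like nuclei, 0.33 in fibroblast-like nuclei and 0.12 in endothelial-like nuclei. For corrected over RBM20 homo it was 0.058 in ventricular cardiomyocyte-like, -0.34 in fibroblast-like and -0.47 in endothelial-like nuclei. Each library pools 3 hearts and is the only one of its genotype, so the difference between classes was not tested. In cardiomyocyte-like nuclei both values include Rpl3l, and without it they were -0.08 for RBM20 homo over WT and -0.09 for corrected over RBM20 homo.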

How the results depend on the processing

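No paired analysis was possible because each genotype has 1 library. The summed members of ventricular cardiomyocyte-like nuclei depended most on the processing. For RBM20 homo over WT (-0.23) the log2 ratio was -0.036 with median-of-ratios factors, -0.061 with Malat1 left out of the total, -0.27 without doublet removal, -0.075 over the core members and -0.038 as the median of the members. For RBM20 het over WT (-0.24) it was -0.19 with median-of-ratios factors and -0.27 with classes from marker scores. For corrected over RBM20 homo (0.06) the sign turned, to -0.071 with median-of-ratios factors, -0.097 without Malat1, -0.098 over the core and -0.083 as the median, and it was 0.095 without doublet removal and 0.14 with marker scores. Leaving out the paralogs takes out Rpl3l, which was higher in the corrected library; the cause under the other settings was not tested. For corrected over WT (-0.18) it was -0.11 with median-of-ratios factors, -0.11 with marker scores and -0.10 as the median. Alternatives chosen after seeing the data gave, without Rpl3l, -0.079 for RBM20 homo over WT and -0.093 for corrected over RBM20 homo, and in nuclei of 4000 to 6000 UMIs -0.14, -0.14, -0.12 and -0.27 in the order above. In fibroblast-like nuclei RBM20 homo over WT (0.33) was 0.28 with nuclei thinned to 1000 UMIs and 0.30 with marker scores, corrected over RBM20 homo (-0.34) was -0.31 with median-of-ratios factors, and corrected over WT (-0.01) was -0.046 with thinning and -0.051 (-0.085 to -0.017) with marker scores. In endothelial-like nuclei RBM20 homo over WT (0.12) was 0.070 with marker scores, RBM20 het over WT (-0.34) was -0.29 thinned, corrected over RBM20 homo (-0.47) was -0.50 with median-of-ratios factors and -0.31 with marker scores, and corrected over WT (-0.35) was -0.30 thinned and -0.24 with marker scores. Members past 1.5-fold in cardiomyocyte-like nuclei for RBM20 homo over WT (5 of 83) numbered 14 of 79 when thinned and 3 of 77 in the core. For RBM20 het over WT (6 of 83) they numbered 17 of 77 when thinned. Thinning leaves fewer UMIs per gene. In the main setting 34.1% of all genes were past the fold for RBM20 homo over WT and 13.1% for RBM20 het over WT. The shares of all genes under the other settings are not given here, so these counts describe the setting and not the members. For corrected over RBM20 homo (2 of 83) the members past the fold numbered 7 of 83 with median-of-ratios factors and 6 of 79 thinned. They numbered 1 of 83 with marker scores and 1 of 77 in the core. For corrected over WT (5 of 83) they numbered 3 of 83 with median-of-ratios factors and 1 of 83 with marker scores. In WT, fibroblast-like over cardiomyocyte-like nuclei (0.45) was 0.41 without Malat1, 0.40 thinned and 0.40 with marker scores. Endothelial-like over cardiomyocyte-like (1.36) was 1.24, 1.15 and 1.10 under those settings, and macrophage-like over cardiomyocyte-like (0.70) was 0.60 without Malat1 and 0.58 with marker scores.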
